A study of Mus musculus with 6 samples.

Results

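Macrophages of the kidney were followed through 10 genes in kidney RNA of diabetic mice, 3 from the Db group and 3 from the Db + Ato10 group. The 10 genes were chosen by name, as general macrophage genes (Cd68, Adgre1, Csf1r, Lyz2, Cd14 and Itgam), genes of resident macrophages (Mrc1 and Cd163) and genes of lipid-associated macrophages (Trem2 and Gpnmb). Their NCBI Gene numbers in the files are 12514 for Cd68, 13733 for Adgre1, 12978 for Csf1r, 17105 for Lyz2, 12475 for Cd14, 16409 for Itgam, 17533 for Mrc1, 93671 for Cd163, 83433 for Trem2 and 93695 for Gpnmb. All 10 were found among the 17684 genes of the table, and 9 of them were among the 13679 genes that had enough counts to be tested.

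Mice of both groups were db/db, which lack a working leptin receptor and become obese and diabetic, and their kidneys were taken at an age of 50 weeks. The strain is given as C57 BLKS/L, whereas the study's reporting summary names a C57BLKS/J background. The Db + Ato10 group had been given atorvastatin, an inhibitor of cholesterol synthesis, by oral gavage for 40 weeks at 10 mg/kg per day. By the study's methods, statins were given on consecutive days of each week but not on all of them. The Db group had been given saline. Total kidney RNA was sequenced with 1 library per mouse. Both groups were diabetic, so the comparison is of treatment within this genotype only. The study reports higher mortality in db/db mice given statins, so the treated mice were survivors. It names a possible survivor bias and believes that this may not be the main factor in the renal injury. The part of survival in the levels given here was not tested. A field of the sample records names atorvastatin for all 6 mice, and the groups were taken from the treatment field, which sets saline apart.

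Kidney macrophages come from cells seeded before birth and from blood monocytes that enter the tissue, and both depend on the receptor Csf1r for survival. Resident cells take up debris and haemoglobin complexes through scavenger receptors such as Mrc1 and Cd163. Macrophages that clear lipid-rich debris in fat, artery wall, brain and injured kidney carry Trem2, a lipid-sensing receptor that signals through the adaptor Tyrobp, and Gpnmb, a glycoprotein of lysosomes and the cell surface.

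Library totals were 13134930, 11381678 and 12426051 counts in Db replicates 1 to 3 and 14578023, 14667909 and 13133241 counts in Db + Ato10 replicates 1 to 3. At these depths 3 counts of a gene equal 0.198 to 0.260 CPM (counts as parts per 1e6, with TMM scaling of library size), the level that a count of 0 still allows, for counting error only. Markers of proximal tubule were present in each library, with a summed level of 828 to 5593 TPM (a level scaled to transcript length) over 8 genes, and Slc34a1, the phosphate transporter of the proximal tubule, was the most abundant of them.

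Libraries stood apart in 2 ways. The first principal component of all tested genes took up 71.1% of the variance, and its scores were 107 and 46.1 for replicates 1 and 2 of Db + Ato10. Replicate 3 of Db + Ato10 scored -18.8, closer to the Db libraries (-55.4, -26.9 and -52.0) than to the rest of its own group. The study's methods enrolled males, and Db replicate 1 had 2 counts in all over 4 Y-linked genes, while the other 5 libraries had 1419 to 2116. The label of Db replicate 1 is therefore in doubt, and whether the sex or the sample differs was not tested. Tests of the members are also given without each of these libraries, whereas counts of non-overlapping groups and the summed levels of marker lists hold all 6.

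In 10 of 10 genes Db + Ato10 replicate 1 was the highest library and Db + Ato10 replicate 2 the next. Db + Ato10 replicate 3 lay near the Db libraries. For the 6 general genes together the summed level was 77.8, 158 and 122 TPM in Db replicates 1 to 3 and 5698, 1226 and 187 TPM in Db + Ato10 replicates 1 to 3. For Trem2 and Gpnmb together it was 0.64, 3.27 and 1.67 TPM against 77.0, 57.1 and 2.76 TPM. For Mrc1 and Cd163 together it was 0.77, 2.34 and 1.33 TPM against 27.0, 16.1 and 2.23 TPM. Thus the general genes differed widely between the 2 high libraries, and the lipid-associated genes differed little between them. In bulk tissue, more macrophages and more RNA per macrophage cannot be told apart.

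**Figure D1:**
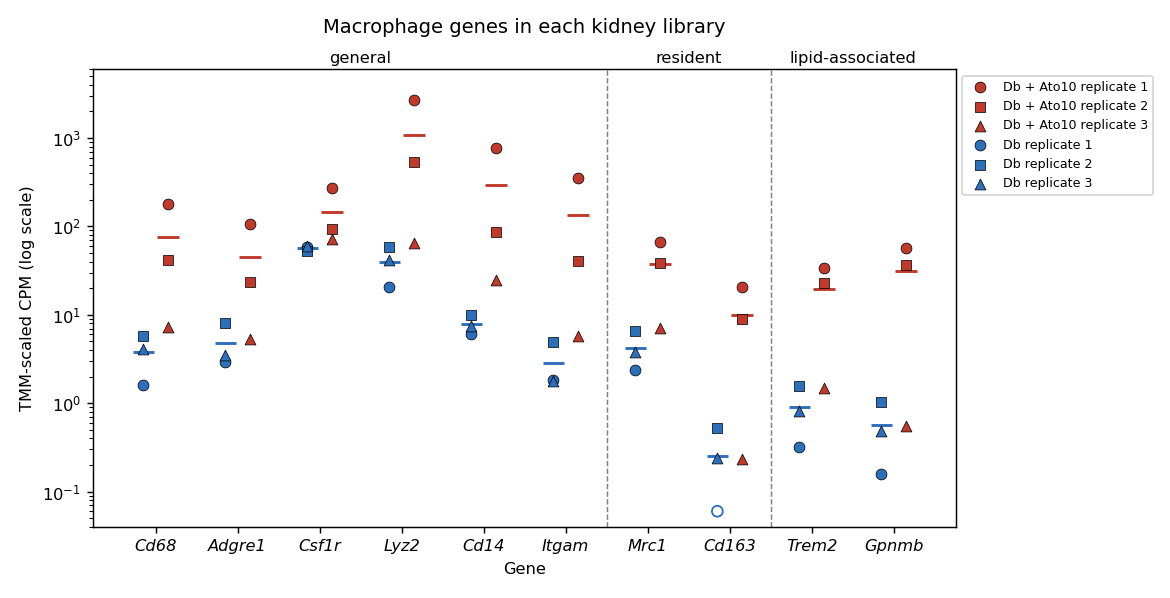
TMM-scaled CPM (log axis) of the 10 macrophage genes in each of 6 kidney libraries, with the Db group in blue, the Db + Ato10 group in red, a marker shape for each replicate number a bar at the mean of each group of 3 and an open circle for the library with 0 counts of Cd163. Db + Ato10 replicates 1 and 2 are the highest libraries for every gene shown, and Db + Ato10 replicate 3 is within the range of the Db libraries for Adgre1, Cd163, Trem2 and Gpnmb.

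Under edgeR's quasi-likelihood test 0 of the 9 tested genes met a fold change over 1.5 with an adjusted p-value under 0.05, as did 0.0% of all 13679 genes. Without adjustment, at p under 0.05 in edgeR, 9 of the 9 were higher in the Db + Ato10 group, beside 11.2% of all tested genes, and 0 were lower, beside 5.71%. At the same threshold limma-voom gave 2 of the 9 higher (6.62% of all), and edgeR with the replicate number as a block gave 5 (8.2%). EdgeR without Db replicate 1 gave 7 of the 9 (5.16%). In the main edgeR fit the adjusted p-values of the 9 ran from 0.239 to 0.265. DESeq2 on the same counts called 8 of the 9 higher, beside 5.17% of all tested genes, and 0 lower, beside 1.29%. EdgeR without Db + Ato10 replicate 3 also called 8 of the 9, beside 5.96%. Csf1r was the exception in both. Without Db replicate 1 edgeR called 0 of the 9, with an edgeR adjusted p-value of 0.588 for each. Over the alternatives, adjusted p-values from edgeR, DESeq2 and limma ran from 3.83e-05 to 0.588 for Cd14, from 0.000239 to 0.588 for Gpnmb, from 0.000745 to 0.588 for Trem2 and from 0.0637 to 0.588 for Csf1r. Without both of these libraries, a choice made after seeing the data, it also called 0 of the 9, with edgeR adjusted p-values from 0.144 to 0.208. In that fit 9 of the 9 were higher at an unadjusted edgeR p-value under 0.05, beside 12.4% of all tested genes, and the log2 fold changes ran from 1.71 for Csf1r to 5.94 for Gpnmb. With Db replicate 1 left out, the log2 fold changes were 2.97 for Adgre1, 1.39 for Csf1r, 4.47 for Lyz2, 5.12 for Cd14, 5.35 for Itgam, 2.87 for Mrc1, 4.05 for Trem2 and 5.37 for Gpnmb. Each library of the Db + Ato10 group lay above each Db library in 6 of the 9, beside 12.0% of all tested genes. A gene passes the count filter more easily when 1 group is high, and Gpnmb passed it with exactly 3 libraries at 10 or more counts.

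Cd68, a lysosomal glycoprotein that marks macrophages in tissue sections, had 1.59, 5.72 and 4.12 CPM in Db replicates 1 to 3 and 178, 41.9 and 7.33 CPM in Db + Ato10 replicates 1 to 3. The groups did not overlap, although Db + Ato10 replicate 3 was only just above Db replicate 2. The group means were 3.81 ± 2.08 and 75.8 ± 90.3 CPM (SD, n = 3 each), so the spread within the Db + Ato10 group exceeded the difference of the means. The log2 fold change of Cd68 was 4.32 (standard error 1.18, edgeR adjusted p = 0.239). Leaving out Db + Ato10 replicate 1 gave 2.71, leaving out Db + Ato10 replicate 3 gave 4.86 and leaving out Db replicate 1 gave 3.96.

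Adgre1 encodes F4/80, the surface receptor by which mouse macrophages are usually identified. It had 2.94, 8.06 and 3.55 CPM in Db replicates 1 to 3 and 106, 23.4 and 5.36 CPM in Db + Ato10 replicates 1 to 3. The groups overlapped, since Db + Ato10 replicate 3 was below Db replicate 2. Its log2 fold change was 3.22 (standard error 1.07, edgeR adjusted p = 0.239), and 1.59 without Db + Ato10 replicate 1.

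Csf1r, the receptor for the growth factors CSF1 and IL-34, had 58.7, 52.4 and 59.8 CPM in Db replicates 1 to 3. In Db + Ato10 replicates 1 to 3 it had 270, 94.1 and 71.4 CPM. The Db libraries lay close together and below each treated library. With 1.35 (standard error 0.50, edgeR adjusted p = 0.265) Csf1r had the smallest log2 fold change of the 9 tested genes, and it was 0.55 without Db + Ato10 replicate 1. Of the 10 genes Csf1r had the second highest level per length in each Db library, 24.8 to 27.9 TPM, next to Lyz2. Cd68 in the same libraries had 2.44 to 8.77 TPM. Pdgfrb, which adjoins Csf1r on the same chromosome without overlapping it, had 23.4, 39.8 and 23.9 CPM in Db replicates 1 to 3 and 86.0, 44.7 and 37.0 CPM in Db + Ato10 replicates 1 to 3, and reads shared between the neighbours were not tested for.

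Lyz2, the lysozyme of macrophages, monocytes and neutrophils, was the most abundant of the 10 genes per length in each of the 6 libraries. Its level was 20.9, 57.9 and 41.4 CPM in Db replicates 1 to 3 and 2663, 538 and 65.3 CPM in Db + Ato10 replicates 1 to 3. The groups did not overlap, but Db + Ato10 replicate 3 was close to Db replicate 2. EdgeR gave a log2 fold change of 4.76 (standard error 1.31, edgeR adjusted p = 0.239), and 2.93 without Db + Ato10 replicate 1. Lyz1, its close paralog, had 1.67, 4.07 and 3.55 CPM against 217, 49.1 and 3.70 CPM, and because the deposited counts are estimates that can divide reads between such copies, the split between Lyz1 and Lyz2 is uncertain.

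Cd14, the co-receptor that hands bacterial lipopolysaccharide to TLR4, had 6.12, 9.88 and 7.43 CPM in Db replicates 1 to 3. Db + Ato10 replicates 1 to 3 had 780, 86.9 and 24.7 CPM. The groups were well apart for Cd14, and Db + Ato10 replicate 3, near the Db level for most of the other genes, had 3.16 times the Db mean here. Its log2 fold change was 5.25 (standard error 1.33, edgeR adjusted p = 0.239), and 2.85 when Db + Ato10 replicate 1 was left out.

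Itgam encodes CD11b, the integrin subunit through which macrophages, monocytes and neutrophils adhere and take up complement-coated particles. It had 1.83, 4.94 and 1.78 CPM in Db replicates 1 to 3 and 357, 40.3 and 5.83 CPM in Db + Ato10 replicates 1 to 3. Again the highest Db library lay just under the lowest treated library. For Itgam the log2 fold change was 5.56 (standard error 1.55, edgeR adjusted p = 0.239), and 3.04 without Db + Ato10 replicate 1.

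Mrc1, the mannose receptor, had 2.38, 6.59 and 3.80 CPM in Db replicates 1 to 3 and 67.2, 38.6 and 7.01 CPM in Db + Ato10 replicates 1 to 3. The groups did not overlap, by a narrow margin. For Mrc1 the log2 fold change was 3.15 (standard error 0.83, edgeR adjusted p = 0.239), and 2.44 when Db + Ato10 replicate 1 was left out.

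Cd163, the receptor that clears haemoglobin bound to haptoglobin, was the gene that was not tested, having fewer than 3 libraries with 10 counts. It had 0, 6 and 3 counts in Db replicates 1 to 3 and 313, 132 and 3 counts in Db + Ato10 replicates 1 to 3. The transcript was therefore at or near the limit of detection in each Db library and in Db + Ato10 replicate 3. In CPM these counts were 0, 0.520 and 0.242 against 20.6, 8.91 and 0.236. With no filter beyond 1 count, edgeR gave Cd163 a log2 fold change of 5.23 (standard error 1.53, edgeR adjusted p = 0.245).

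Trem2 had 0.318, 1.56 and 0.808 CPM in Db replicates 1 to 3 and 34.0, 22.9 and 1.497 CPM in Db + Ato10 replicates 1 to 3. The 2 high libraries were of similar level, and Db + Ato10 replicate 3 lay inside the Db range. For Trem2 the log2 fold change was 4.44 (standard error 1.16, edgeR adjusted p = 0.239). It kept much of its size, 3.79, when Db + Ato10 replicate 1 was left out, unlike that of the general genes.

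Gpnmb had 0.159, 1.04 and 0.485 CPM in Db replicates 1 to 3 and 56.7, 36.7 and 0.551 CPM in Db + Ato10 replicates 1 to 3. These were 2, 12 and 6 counts against 861, 544 and 7 counts. Gpnmb thus divided the treated group sharply, with Db + Ato10 replicate 3 at 0.982 times the Db mean, the lowest such value of the 9 tested genes. For Cd163, which was not tested, it was 0.930. The log2 fold change of Gpnmb, 5.80 (standard error 1.56, edgeR adjusted p = 0.239), was the largest of the 9 tested genes, and it was 6.38 without Db + Ato10 replicate 3. Without Db + Ato10 replicate 1, Gpnmb no longer had enough counts to be tested.

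The members were also compared between the 2 high libraries. Between Db + Ato10 replicate 1 and replicate 2 the ratio of CPM was 8.97 for Cd14, 8.86 for Itgam, 4.95 for Lyz2, 4.55 for Adgre1, 4.25 for Cd68 and 2.87 for Csf1r. It was 2.31 for Cd163 and 1.74 for Mrc1. For Gpnmb it was 1.54 and for Trem2 1.48. Among the 10 members the general genes had the largest ratios and the lipid-associated genes the smallest. In wider lists the medians fell in the same order, but the ranges overlapped widely. The ratio ran from 0.435 to 9.54 over 16 other pan-macrophage genes (median 3.03), from 0.252 to 6.17 over 14 other resident genes (median 2.15) and from 0.309 to 5.25 over 18 other lipid-associated genes (median 1.32). The lipid-associated Msr1 had a ratio of 5.25 and the pan-macrophage Fcgr1 a ratio of 1.37, so the order of the members does not extend to each gene of a role. These are ratios of single libraries, so no test was possible.

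Within the Db group the genes shared an order as well. Db replicate 2 was the highest Db library for 9 of 10 genes, Csf1r being the exception, and Db replicate 1 the lowest for 8 of 10. The ratio of the highest to the lowest Db library was 6.55 for Gpnmb, 4.91 for Trem2, 3.60 for Cd68, 2.78 for Itgam, 2.76 for Mrc1, 1.61 for Cd14 and 1.14 for Csf1r. Counts of Gpnmb and Trem2 in these libraries were at most 18.

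To compare lipid-associated and resident genes with a general gene inside each library, Trem2, Gpnmb, Mrc1 and Cd163 were each divided by Cd68, as the log2 of the ratio of CPM plus 0.5. For Trem2 the log2 ratio was -1.35, -1.59 and -1.82 in Db replicates 1 to 3 and -2.37, -0.86 and -1.97 in Db + Ato10 replicates 1 to 3. For Gpnmb it was -1.66, -2.01 and -2.23 against -1.64, -0.19 and -2.90. Db + Ato10 replicate 2 had the highest ratio of the 6 libraries for both genes, and the groups overlapped. The difference of group means was -0.14 for Trem2 (exact two-sided permutation test, p = 0.8) and 0.39 for Gpnmb (exact permutation p = 0.7), less than the SD of 0.79 and 1.36 within the Db + Ato10 group (n = 3). Neither lipid-associated gene was thus shown to differ from Cd68 in its change.

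For Mrc1 the log2 ratio to Cd68 was 0.47, 0.19 and -0.10 in Db replicates 1 to 3 and -1.40, -0.11 and -0.06 in Db + Ato10 replicates 1 to 3. The low value stood alone in Db + Ato10 replicate 1, and the groups overlapped narrowly. The difference of means was -0.71 (exact two-sided permutation test, p = 0.2), and -0.27 without Db + Ato10 replicate 1. For Cd163 the difference was -0.45 (exact permutation p = 0.3), from counts too low in 4 libraries to fix the ratio. Among 4 ratios tested, the smallest p-value that 3 against 3 libraries allow is 0.1. The sign turned with the denominator for Trem2, Mrc1 and Cd163 and stayed for Gpnmb: with Adgre1 in place of Cd68 the differences were 0.85 for Trem2, 1.39 for Gpnmb, 0.29 for Mrc1 and 0.54 for Cd163, with exact permutation p-values of 0.1, 0.4, 0.6 and 0.4.

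**Figure D2:**
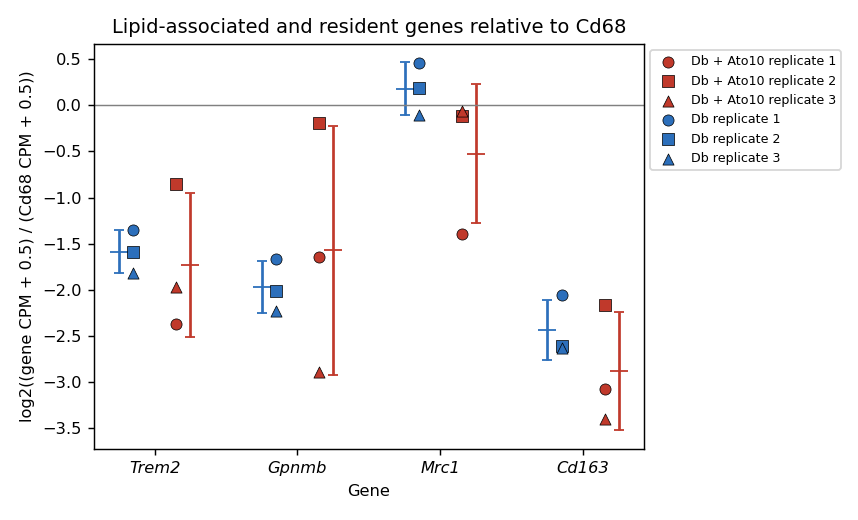
Log2 ratio of Trem2, Gpnmb, Mrc1 and Cd163 to Cd68 in each of 6 kidney libraries, each as CPM plus 0.5, with Db in blue and Db + Ato10 in red. Horizontal ticks with error bars are means and SD of 3 libraries. The groups overlap for each gene, and Db + Ato10 replicate 2 has the highest ratio of Trem2 (-0.86) and of Gpnmb (-0.19).

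The transcript table held 20 transcripts of the 10 genes, of which 14 were tested. At an unadjusted edgeR p-value under 0.05, 9 of the 14 were higher, beside 5.38% of all 30175 tested transcripts, and 0 were called after adjustment, beside 0.0% of all. DESeq2 called 7 of them higher, beside 1.9% of all tested transcripts. Cd68, Lyz2, Mrc1, Gpnmb and Cd14 each had a single transcript. Trem2 had 2, of which the major held 86.2% of its counts, and the minor had 73.9 and 51.4 estimated counts in Db + Ato10 replicates 1 and 2 and 0 in the other 4 libraries. For Csf1r 85.1% of counts were assigned to 1 predicted transcript. Its share of Csf1r counts in Db replicates 1 to 3 was 50.7%, 96.9% and 66.5%. Itgam counts were divided unevenly, with 63.4% on the same 1 of its 2 transcripts in Db + Ato10 replicate 1 and 35.2% in Db + Ato10 replicate 2, and such shares are estimates from reads that several transcripts share.

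Of 9 genes of TREM2 and DAP12 signalling 8 were tested, with a median log2 fold change of 2.71 against -0.0063 for all tested genes. At an unadjusted edgeR p-value under 0.05, 6 were higher (11.2% of all tested genes) and 0 lower (5.71% of all). DESeq2 called 4 higher (5.17% of all), and edgeR without Db + Ato10 replicate 3 called 6 higher (5.96% of all). The main edgeR fit called 0 genes after adjustment, in this list and among all 13679 tested genes. Of the edgeR fits that left out a single library, only the one without Db + Ato10 replicate 3 called any gene. This holds for the lists below too. Tyrobp, which encodes the adaptor DAP12, was the most abundant of them per length, with 2.62, 10.6 and 6.06 CPM in Db replicates 1 to 3 and 260, 42.7 and 10.2 CPM in Db + Ato10 replicates 1 to 3. Its treated libraries overlapped the Db range through replicate 3, as for Trem2. Log2 fold changes were 4.03 for Tyrobp, 5.27 for Ms4a6d (the largest of the list) and 0.39 for Adam17, a protease that sheds TREM2 (the smallest).

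Of the 18 other genes of lipid-associated macrophages all were tested, and their median log2 fold change was 0.85. At an unadjusted edgeR p-value under 0.05, 10 of the 18 were higher (11.2% of all tested genes) and 2 lower (5.71%). DESeq2 called 8 higher (5.17%), and edgeR without Db + Ato10 replicate 3 called 7 higher (5.96%). Spp1, osteopontin, was the most abundant, with 2909, 3368 and 1838 CPM in Db replicates 1 to 3 and 8906, 28855 and 9124 CPM in Db + Ato10 replicates 1 to 3. Spp1 is also made by injured tubule cells, and unlike Trem2 and Gpnmb it was high in Db + Ato10 replicate 3. Msr1, a scavenger receptor, had the largest log2 fold change, 5.33, and Lpl, lipoprotein lipase, the smallest, -1.33. Several genes of the list, such as Lpl, Lipa, Ctsb and Cd63, are abundant in kidney cells of other types.

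Of 18 other genes of resident macrophages 14 were tested, with a median of 2.09. At an unadjusted edgeR p-value under 0.05, 10 of the 14 were higher (11.2% of all tested genes) and 0 lower (5.71%). DESeq2 called 8 higher (5.17%), and edgeR without Db + Ato10 replicate 3 called 9 higher (5.96%). Cd74, which chaperones class II molecules, was the most abundant. C1qa, a complement subunit made by resident macrophages, had 14.9, 39.3 and 22.6 CPM in Db replicates 1 to 3 and 454, 176 and 35.0 CPM in Db + Ato10 replicates 1 to 3. Its groups overlapped through Db replicate 2. The largest log2 fold change was that of Pf4, 5.51, and the smallest that of Maf, -0.22. Timd4, a marker of long-lived resident macrophages, was below 0.07 CPM in each library.

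Among 16 other pan-macrophage genes, all tested, the median was 3.44. At an unadjusted edgeR p-value under 0.05, 14 of the 16 were higher (11.2% of all tested genes) and 0 lower (5.71%). DESeq2 called 14 higher (5.17%), and edgeR without Db + Ato10 replicate 3 called 13 higher (5.96%). Lgmn, a lysosomal protease that tubule cells also make, was the most abundant. Fcer1g, the signalling chain of Fc receptors, had the largest log2 fold change, 4.47, and Mertk, a receptor for dying cells, the smallest, -0.24.

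Colony-stimulating factors and receptors beside Csf1r were Csf1 and Il34, its ligands, and Csf2, Csf2ra, Csf2rb and Csf3, which belong to the GM-CSF and G-CSF systems. Of these 6 genes 4 were tested, and at an unadjusted edgeR p-value under 0.05 4 were higher (11.2% of all tested genes), with a median of 2.00. DESeq2 called 3 (5.17% of all), and edgeR without Db + Ato10 replicate 3 called 4 (5.96% of all). Both ligands of Csf1r were higher in each treated library than in each Db library. Il34, made by tubule cells and the most abundant of the list, had 7.79, 15.0 and 10.8 CPM in Db replicates 1 to 3 and 75.5, 59.4 and 23.8 CPM in Db + Ato10 replicates 1 to 3. Csf1 had 13.1, 16.1 and 14.8 CPM against 66.9, 63.8 and 17.6 CPM. Like Trem2 and Gpnmb, both ligands had similar levels in the 2 high libraries. Csf2rb had the largest log2 fold change, 4.39, and Csf2ra the smallest, 1.72.

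Cd14 works with TLR4, and of 8 genes of that complex, all tested, 4 were higher and 0 lower at an unadjusted edgeR p-value under 0.05, with a median of 1.11. Of all tested genes 11.2% were higher and 5.71% lower at that threshold. DESeq2 called 2 (5.17% of all), and edgeR without Db + Ato10 replicate 3 called 3 (5.96% of all). Their log2 fold changes ran from 0.42 for Irak4 to 3.25 for Tlr2, all below that of Cd14, and Myd88 was the most abundant. Itgam pairs with Itgb2, and of 6 genes of beta integrins and their ligands 5 were tested, with 4 higher (11.2% of all) and 0 lower and a median of 2.87. DESeq2 called 4 (5.17% of all) and edgeR without Db + Ato10 replicate 3 called 3 (5.96% of all). Itgb2 had the largest log2 fold change, 4.30, Icam2 the smallest, -0.17, and Icam1 was the most abundant. Of 8 genes of haem handling around Cd163, 7 were tested and 2 were higher (11.2% of all), with a median of 0.68. DESeq2 called 1 (5.17% of all) and edgeR without Db + Ato10 replicate 3 called 2 (5.96% of all). Hp, haptoglobin, had the largest log2 fold change, 7.75, carried by Db + Ato10 replicate 1, with 1058, 15.1 and 2.28 CPM in Db + Ato10 replicates 1 to 3 against 1.67, 2.51 and 0.808 CPM in Db replicates 1 to 3. The groups overlapped for Hp, and DESeq2 gave it no p-value. Slc48a1 had the smallest log2 fold change, 0.052, and Fth1 was the most abundant.

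Summed markers of other blood cells were highest in Db + Ato10 replicates 1 and 2. Of 12 neutrophil genes 4 were tested. Retnlg, with a log2 fold change of 10.21, passed the count filter only through the treated libraries, so no count over the list is given. Csf3r had the smallest log2 fold change, 5.41. The summed level of the 12 was 24.6, 38.5 and 17.7 TPM in Db replicates 1 to 3 and 46883, 457 and 44.5 TPM in Db + Ato10 replicates 1 to 3, and S100a9 was the most abundant. Neutrophil RNA was thus concentrated in Db + Ato10 replicate 1, the library in which all 10 members stood highest. Ly6g, which defines mouse neutrophils, had 26.1 CPM in that library, 0.473 CPM in Db + Ato10 replicate 2 and 0 in Db + Ato10 replicate 3. The part of neutrophils in the members' levels was not tested.

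Of 12 monocyte genes 11 were tested. Treml4 passed the count filter only through the treated libraries, so no count over the list is given. The summed level of the 12 monocyte genes was 104, 75.8 and 124 TPM in Db replicates 1 to 3 and 1531, 424 and 131 TPM in Db + Ato10 replicates 1 to 3, with Plac8 the most abundant. Ace, which other kidney cells also make, held 76.7, 30.5 and 84.3 TPM of the Db sums and 14.5, 42.3 and 66.1 TPM of the Db + Ato10 sums. Without Ace, a choice made after seeing the data, the sums were 26.8, 45.3 and 39.4 TPM against 1516, 382 and 65.4 TPM, with each treated library above each Db library. Ccr2, the chemokine receptor by which monocytes enter tissue, had 0.874, 2.17 and 3.07 CPM against 10.4, 11.8 and 2.99 CPM. Its groups overlapped, and Db + Ato10 replicates 1 and 2 were at a similar level, as for Trem2. The largest log2 fold change was that of F13a1, 6.54, and the smallest that of Ace, -0.72. The part of monocytes in the members' levels was not tested.

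Dendritic cell, T cell and B cell markers were summed in the same way. The 10 dendritic cell genes summed to 49.3, 67.1 and 46.9 TPM in the Db libraries and to 134, 126 and 54.3 TPM in the Db + Ato10 libraries, with Bst2 the most abundant. Without Bst2, a choice made after seeing the data, the remaining 9 summed to 8.33, 9.99 and 6.09 TPM against 11.2, 8.5 and 6.15 TPM, so the groups overlapped. Of the 6 tested 1 was higher at an unadjusted edgeR p-value under 0.05, beside 11.2% of all tested genes. Their median log2 fold change was 0.54, from -0.39 for Clec9a to 1.15 for Bst2, and DESeq2 called 0, beside 5.17% of all. The 8 T cell genes in the table summed to 3.33, 8.34 and 3.79 TPM against 27.2, 27.9 and 4.94 TPM, with Cd3g the most abundant, and 1 of 4 tested was higher, beside the same 11.2%. Their median was 1.51, from 0.93 for Cd8a to 2.89 for Cd3g, and DESeq2 called 1. The 6 B cell genes in the table summed to 1.39, 17.3 and 4.03 TPM against 249, 84.3 and 6.01 TPM, with Jchain the most abundant, and 2 of 2 tested were higher, beside 11.2% of all, Cd79b with a log2 fold change of 2.10 and Jchain with 4.27. Of these B cell genes DESeq2 called 0. EdgeR without Db + Ato10 replicate 3 called 1 of 5 tested dendritic cell genes, 1 of 4 T cell genes and 0 of 2 B cell genes, beside 5.96% of all. In Db + Ato10 replicate 3 each of these 3 sums lay within the Db range. Their part in the members' levels was not tested.

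Gpnmb is also known from melanocytes, osteoclasts and fat tissue. Of the melanocyte markers 5 were in the table and 0 were tested, with summed levels of 0.31 to 1.88 TPM, and Pmel, the most abundant, had at most 1.19 CPM. The 7 osteoclast genes summed to 96.4, 104 and 118 TPM in the Db libraries and to 493, 183 and 106 TPM in the Db + Ato10 libraries. Acp5 was the most abundant of them, with a log2 fold change of 0.93, and 5 of the 7 were tested. Mmp9, with 7.70, passed the count filter only through the treated libraries, so no count over the list is given. The defining genes Ocstamp and Dcstamp had at most 1.71 CPM. The 6 adipocyte genes in the table summed to 0.74 to 2.38 TPM, and Cidec, the most abundant, was tested only because the treated libraries had 14, 24 and 12 counts against 4, 4 and 6 in the Db libraries. Adiponectin (Adipoq), which defines fat cells, had at most 0.081 CPM.

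Tubule markers also differed between libraries. The 8 genes of injured tubule summed to 455, 722 and 445 TPM in Db replicates 1 to 3 and to 11967, 3323 and 1455 TPM in Db + Ato10 replicates 1 to 3. Lcn2, the most abundant, alone held 7.28, 104 and 15.5 TPM of the Db sums and 10827, 2069 and 697 TPM of the Db + Ato10 sums. Of the 8 injured tubule genes 8 were higher at an unadjusted edgeR p-value under 0.05 (11.2% of all tested genes). DESeq2 called 7 (5.17% of all), and edgeR without Db + Ato10 replicate 3 called 6 (5.96% of all). The median was 3.02, from 0.69 for Cd24a to 6.89 for Lcn2. The 8 proximal tubule genes summed to 5582, 4333 and 5593 TPM against 828, 2765 and 5142 TPM. At an unadjusted edgeR p-value under 0.05, 0 of the 8 were lower (5.71% of all). Their median was -0.78, from -1.55 for Slc5a2 to -0.24 for Slc22a6. Without Db + Ato10 replicate 3 edgeR called 1 of the 8 lower, Slc5a2, with a log2 fold change of -3.03 (edgeR adjusted p = 0.0233). That fit called 1106 of 13517 tested genes in either direction. Db + Ato10 replicate 3 thus had an injured tubule sum above that of each Db library, beside Trem2 and Gpnmb at the Db level. The part of tubule cells in the members' levels was not tested.

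**Figure D3:**
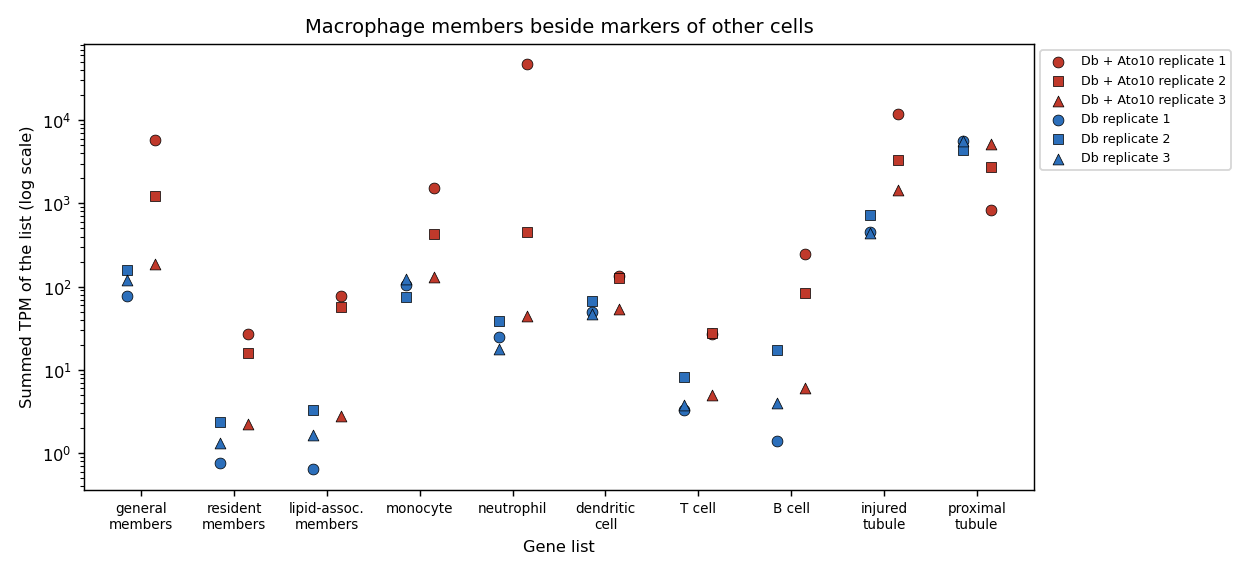
Summed TPM (log axis) of the macrophage members by role and of marker lists of other cells in each of 6 kidney libraries, with Db in blue and Db + Ato10 in red and a marker shape for each replicate number. The neutrophil sum of Db + Ato10 replicate 1 (46883 TPM) lies far above that of Db + Ato10 replicate 2 (457 TPM), while the lipid-associated members differ little between these libraries (77.0 and 57.1 TPM).

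Among 10013 other genes with a mean of at least 10 CPM, those whose log2 CPM over the 6 libraries was most like the mean z score of the 6 general members by Pearson correlation were Hmga1b, Csf2rb2, S100a6, Fermt3 and Nckap1l. Those most like Trem2 and Gpnmb by the same measure were Psmd10, Ddhd1, Grn, Pck2 and Ric8a. The measure ignores the size of a change. Grn, which encodes the lysosomal protein progranulin, had 166, 231 and 186 CPM in Db replicates 1 to 3 and 492, 446 and 196 CPM in Db + Ato10 replicates 1 to 3. Psmd10, a proteasome chaperone, had 20.3, 22.0 and 21.1 CPM against 27.7, 26.4 and 21.8 CPM. Fermt3, an integrin activator of blood cells, had 2.30, 4.33 and 3.23 CPM against 61.0, 13.7 and 5.44 CPM. These genes were picked for their likeness to the members' levels, so the shared pattern is no finding.

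Promoter sequences are shown for members that were high in the same libraries. RefSeq promoters of build GRCm38.p6, from 250 bases before to 50 bases after the gene start, were matched for 7 of the 10 genes (Cd68, Lyz2, Itgam, Mrc1, Cd163, Trem2 and Gpnmb). Both strands were searched for GAGGAA, the core bound by the myeloid factor PU.1, TGANTCA, the AP-1 type site, CACGTG, an E-box, and CACATG, a site of the MITF type. GAGGAA was found in 4 of the 7 (Cd68, Itgam, Mrc1 and Trem2), beside 28.3% of 32851 promoters, and TGANTCA in 3 of the 7 (Cd68, Trem2 and Gpnmb), beside 7.81%. CACATG was found in Mrc1 alone, beside 14.2%, and CACGTG in 0 of the 7, beside 7.15%. The motifs were chosen after the expression values were known, and a match is a description of letters, not of binding. The printed stretches run from 190 bases before to 20 bases after the start, 5′ to 3′ on the gene strand, with GAGGAA and TGANTCA on either strand in capitals. They lie at chr11:69666151-69666360 (minus strand) for Cd68, chr7:128062450-128062659 for Itgam, chr2:14229224-14229433 for Mrc1, chr17:48346211-48346420 for Trem2 and chr6:49036328-49036537 for Gpnmb (plus strand for these 4).
Cd68: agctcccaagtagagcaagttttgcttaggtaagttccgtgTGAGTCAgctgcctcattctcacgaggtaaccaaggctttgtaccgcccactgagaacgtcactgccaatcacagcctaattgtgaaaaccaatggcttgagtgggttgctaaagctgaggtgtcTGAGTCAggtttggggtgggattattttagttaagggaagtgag
Itgam: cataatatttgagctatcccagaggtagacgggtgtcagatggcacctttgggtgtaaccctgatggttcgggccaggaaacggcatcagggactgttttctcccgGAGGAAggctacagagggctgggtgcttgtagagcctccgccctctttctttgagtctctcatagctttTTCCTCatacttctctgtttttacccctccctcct
Mrc1: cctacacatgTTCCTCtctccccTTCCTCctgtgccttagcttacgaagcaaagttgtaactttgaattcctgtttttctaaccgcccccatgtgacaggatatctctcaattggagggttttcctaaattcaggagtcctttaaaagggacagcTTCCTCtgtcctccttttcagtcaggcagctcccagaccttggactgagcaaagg
Trem2: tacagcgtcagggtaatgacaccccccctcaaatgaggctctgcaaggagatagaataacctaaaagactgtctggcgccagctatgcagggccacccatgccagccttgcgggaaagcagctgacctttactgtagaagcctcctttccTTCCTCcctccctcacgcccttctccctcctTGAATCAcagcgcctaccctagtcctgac
Gpnmb: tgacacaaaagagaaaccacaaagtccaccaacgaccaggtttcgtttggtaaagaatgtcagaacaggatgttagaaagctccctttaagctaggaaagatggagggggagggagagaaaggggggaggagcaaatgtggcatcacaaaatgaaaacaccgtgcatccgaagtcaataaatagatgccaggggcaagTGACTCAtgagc
Trem2 had GAGGAA 40 bases and TGANTCA 9 bases before its start, and Gpnmb had TGANTCA at base 9 after it. Cd68 had TGANTCA at 149 and 24 bases before its start, and its GAGGAA matches lay outside the printed stretch.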

How the data were processed

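Kidney RNA of 3 Db and 3 Db + Ato10 mice was measured, with 1 library per mouse. The submitters' processing notes name the mouse build mm9, HISAT and Bowtie2 2.2.5, and the counting tool is not given in the sources used here. The authors deposited expected counts (estimated reads, not normalized) per gene and per transcript, and 91.3% of them were exactly whole at the gene level with zeros included (90.5% of those above 0). In addition the authors gave FPKM, scaled to length and library size, and the deposited TPM is scaled to length and a common total. Depth per library is given with the results.

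Expected counts were rounded and compared with edgeR 4.0.16 in R 4.3.3 (TMM, quasi-likelihood F test, at least 10 counts in at least 3 libraries, Benjamini-Hochberg adjustment over all tested genes). A gene was called at a fold change over 1.5 and an adjusted p-value under 0.05. A standard error is the absolute log2 fold change over the root of F, and a prior count of 2 entered log2 CPM. DESeq2 1.42.0 and limma 3.58.1 served as alternatives, with other scalings, filters, denominators and left-out libraries. The fits were tested on simulated data. Ratios used exact permutation tests in Python 3.11.15, and figures matplotlib 3.10.9. The text names the 10 members, the most abundant gene and those of the largest and smallest log2 fold change of most lists, 6 further genes (Tyrobp, Spp1, C1qa, Csf1, Il34 and Ccr2) and the genes most alike by Pearson correlation, while other names were picked with values in view. The members and lists were chosen with earlier results of these data known. For Plin2, a duplicated symbol, the RefSeq gene number was used. Promoters came from RefSeq (GRCm38.p6), a build other than that of the counts.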

Additional observations from a re-analysis of the deposited data

How the results depend on the processing

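The number of genes called was 0 with edgeR (2314 at an unadjusted p-value under 0.05) and 884 with DESeq2, and from 0 to 1106 over fits that left out a library. The number of the 10 macrophage genes called was 0 with edgeR, 8 with DESeq2 and 0 to 8 with a library left out, where 8 came without Db + Ato10 replicate 3. Called transcripts of these genes were 0 with edgeR, 7 with DESeq2 and 0 in each fit with a library left out. Genes higher at an unadjusted p-value under 0.05 were 9 of 9 tested members with edgeR (11.2% of all tested genes) and 2 of 9 with limma-voom (6.62%). With a library left out, edgeR gave 7 to 9 higher among the 8 or 9 members that were tested (5.16% to 16.8% of all). The cause of these differences was not tested.

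The replicate numbers are not stated to pair the mice, and correlations of same-numbered deviations were -0.15, 0.061 and 0.21. Those of different numbers ran from -0.37 to 0.31, so these values cannot decide whether mice were paired. With the number as a replicate block, 0 genes were called and 5 of the 9 tested members were higher at an unadjusted p-value under 0.05, beside 8.2% of all tested genes.

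The log2 fold change kept its sign for each tested member in each alternative that gave a value. The Trem2 to Cd68 difference turned from -0.14 to 0.19 with a pseudocount of 0.1, 0.020 with TPM, 0.85 with Adgre1 and 2.08 with Csf1r as denominator, with a range of -0.58 to 0.18 with a library left out. That of Gpnmb turned from 0.39 to -0.10 with TPM, with a range of -0.30 to 1.06. That of Mrc1 turned from -0.71 to 0.29 with Adgre1 and 1.51 with Csf1r, with a range of -0.94 to -0.27. That of Cd163 turned from -0.45 to 0.38 with a pseudocount of 0.1, 0.54 with Adgre1 and 1.77 with Csf1r, with a range of -0.81 to -0.19. With TPM the differences were larger, -0.99 for Mrc1 and -1.11 for Cd163, each with an exact permutation p of 0.1, the smallest that 3 against 3 libraries allow. Low counts of Cd163, Trem2 and Gpnmb in the Db libraries limit these ratios.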

Other observations

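Itgax, the integrin subunit CD11c, had 0.636, 2.25 and 1.62 CPM in the Db libraries and 7.97, 11.3 and 4.65 CPM in the Db + Ato10 libraries, and was higher in Db + Ato10 replicate 2 than in replicate 1, unlike each of the 10 macrophage genes.

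The squamous and urothelial list of 10 genes summed to 11.8, 10.2 and 8.84 TPM in Db replicates 1 to 3 and to 184, 144 and 59.9 TPM in Db + Ato10 replicates 1 to 3. Sprr1a was the most abundant. Krt5, Krt14 and Krt15 passed the count filter only through the treated libraries, so no count over the list is given. The high sums came from Sprr1a, Krt5, Krt14 and Krt15. The 4 uroplakins alone summed to 6.66, 3.33 and 4.58 TPM in the Db libraries and to 17.7, 7.08 and 2.83 TPM in the Db + Ato10 libraries, and Upk1a had a log2 fold change of -0.66.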
